A study of Mus musculus with 23 samples.

Results

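The 6 HL-1 libraries among the 23 of the series were examined, 5 from single HL-1 cardiomyocytes (HL1cm1 to HL1cm5) and 1 from a bulk population (the population control, HL1cm-PC). They were chosen by their labels alone, as every library whose label names this cell line. HL-1 is a mouse atrial cardiomyocyte line that was derived from a tumour driven by the SV40 large T antigen, placed under the promoter of the atrial natriuretic factor gene Nppa. The line was labelled as C57BL/6J, grown at passages 70 to 85 in Claycomb medium with 0.1 mM norepinephrine, stained with a green cytoplasmic dye and captured on a Fluidigm C1 chip for cells of 17 to 25 µm. The other 17 libraries were bone marrow mesenchymal stem cells (mMSCs) of the same strain at passages 6 to 11, 16 of them single cells and 1 a population control (mMSC-PC). mMSCs and HL-1 cells were captured in the same device, and all HL-1 cells therefore share the line, the medium and the capture. No separate cultures were named for the 5 cells, so they were treated as 1 sample, spreads between cells are not replicate errors of a condition, and no test was made between cells and population control.

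Atrial cardiomyocytes contract through the same sarcomere as ventricular ones but use their own light chains of myosin, and they store and release natriuretic peptides. Myl7 and Myl4 encode the regulatory and essential light chains of atrial myosin, and Tnni3 the cardiac inhibitory subunit of troponin. HL-1 cells are known for dividing in culture while keeping a cardiac transcript profile, so muscle genes and genes of the cell cycle can both be measured in the same cell.

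Expression was given in FPKM (fragment counts scaled to exon length and to library size) for 23284 genes. Genes with symbols starting in Mir or Snor were left out, which removed 759 genes and left 22525. They held 70.3% of summed FPKM in HL1cm1, 69.7% in HL1cm3 and 76.2% in HL1cm5, but 14.1% in HL1cm2, 2.16% in HL1cm4 and 2.40% in HL1cm-PC. A single cell had between 6422 (HL1cm2) and 7003 (HL1cm5) of the remaining genes at or above 1 FPKM, and HL1cm-PC had 9879. In all, 11502 genes reached 1 FPKM in at least 1 of the 6 libraries, and the shares of genes below refer to them. Log2 values were taken after values under 1 FPKM were set to 1. A deposited 0 may be a failed estimate as well as a missing transcript, and such genes are described as listed at 0.

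Myl7 was the most highly expressed gene that all 5 cells shared. It was at 40223 FPKM in HL1cm1, 46701 in HL1cm2, 20292 in HL1cm3, 34366 in HL1cm4, 31995 in HL1cm5 and 34649 in HL1cm-PC. This made up 4.0% (HL1cm3) to 7.22% (HL1cm5) of summed FPKM in a cell, with HL1cm-PC inside that range at 4.52%, while the highest mMSC library had 65.4 FPKM. Tnni3 was at 4450, 4326, 3089, 3732 and 1104 FPKM in HL1cm1 to HL1cm5 and at 2942 in HL1cm-PC. HL1cm5 was the low cell for this subunit, and its value was still above the 39.3 FPKM of the highest mMSC library. Both genes were thus found in 5 of 5 cells, a share whose exact 95% interval reaches down to 47.8% for so few cells and covers counting error only.

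Nppa, the third marker and the gene whose promoter drove the tumour antigen, split the cells. It was at 1603 FPKM in HL1cm1 and 1641 in HL1cm4, listed at 0 in HL1cm2, HL1cm3 and HL1cm5, and at 367 in HL1cm-PC. Its SD of log2 FPKM between cells was 5.84, the largest among genes that reached 100 FPKM in any cell, against a median SD of 1.29 over all 11502 genes. With 2 of 5 cells, the exact 95% interval of the share was 5.27% to 85.3%. Nppb, which encodes brain natriuretic peptide and ends 13517 bases before the start of Nppa on chromosome 4 of GRCm38.p6, was listed at 0 in all 5 cells and at 57.8 FPKM in HL1cm-PC. A count of 0 in 5 cells allows a share of up to 52.2% of cells with a listed value by the exact interval, which does not limit the share of cells that express the gene. Of genes at 30 to under 100 FPKM in HL1cm-PC, 16.5% to 21.2% were listed at 0 in a given cell. The promoters of Myl7, which all cells shared, and of Nppa, which split them, are given as the 250 bases before the start site in RefSeq (GRCm38.p6). Capitals mark the motifs that were searched, which were the motif AGATAA of GATA factors and the CArG box on both strands, and the TATA box as TATAAA on the strand of the gene only. No marked motifs overlap.

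Myl7, chr11:5898783-5899032, minus strand: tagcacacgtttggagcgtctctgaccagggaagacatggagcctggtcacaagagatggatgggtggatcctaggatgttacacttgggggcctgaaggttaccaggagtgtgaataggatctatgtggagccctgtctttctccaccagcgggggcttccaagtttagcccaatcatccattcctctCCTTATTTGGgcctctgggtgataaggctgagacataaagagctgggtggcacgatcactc

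Nppa, chr4:148000472-148000721, plus strand: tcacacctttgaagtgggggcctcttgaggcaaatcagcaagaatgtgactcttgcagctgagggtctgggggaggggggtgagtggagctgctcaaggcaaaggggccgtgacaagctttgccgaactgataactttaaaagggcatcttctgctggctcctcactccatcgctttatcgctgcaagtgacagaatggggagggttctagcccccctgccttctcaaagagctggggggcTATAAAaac

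The Myl7 window held 1 CArG box, which starts 61 bases before the start site, and the Nppa window held 1 TATAAA, 9 bases before it. A CArG box was found in 1.47% of all 32851 promoters of this length and in 20% of the 20 promoters of the 16 thick and thin filament genes. TATAAA was found in 7.59% of all promoters. These matches describe letters in the window and were not tested as binding sites.

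**Figure D1:**
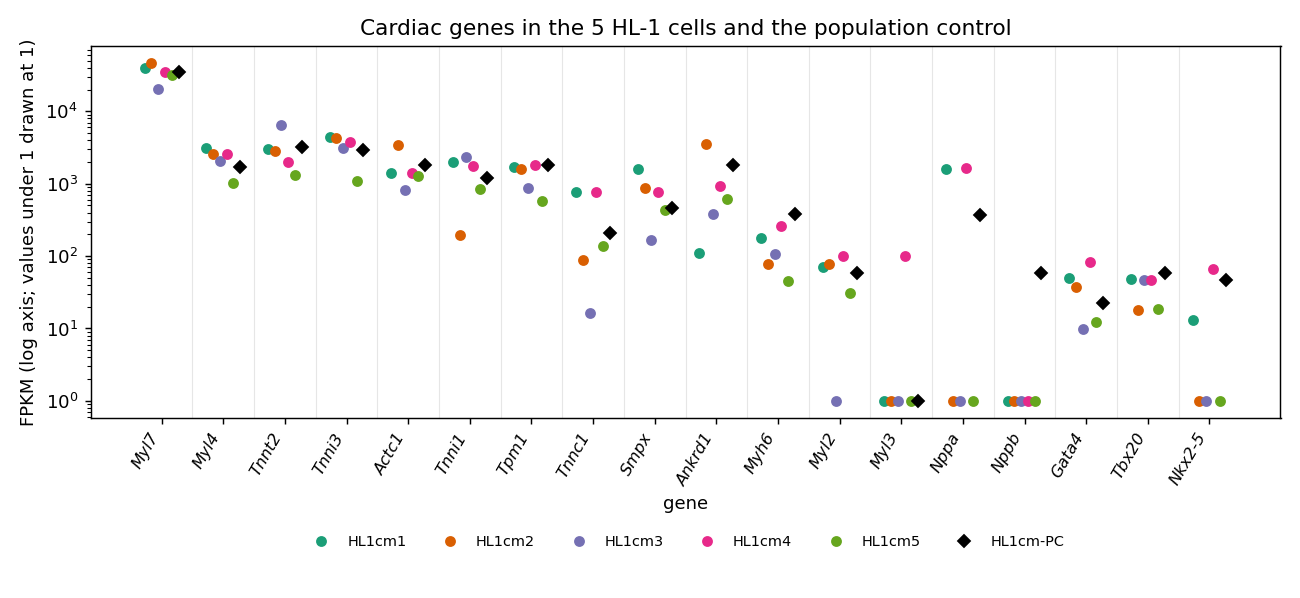
FPKM (log axis, values under 1 drawn at 1) of 18 cardiac genes in the 5 HL-1 cells (coloured points) and HL1cm-PC (black diamonds). Myl7 stands at 20292 FPKM or above in every library, while Nppa lies at 1603 FPKM in HL1cm1 and 1641 in HL1cm4 and on the floor in the other 3 cells.

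The other thick filament genes were shared less evenly. Myl4, the atrial essential light chain, was at 3088, 2608, 2050, 2570 and 1015 FPKM in HL1cm1 to HL1cm5 and at 1693 in HL1cm-PC. Its ventricular counterpart Myl3 was found in HL1cm4 alone, at 102 FPKM, and was listed at 0 in the other 4 cells and in HL1cm-PC. Myl2, the ventricular regulatory light chain, was listed at 0 in HL1cm3 and lay between 31.1 and 101 FPKM in the other 4 cells. On this scale per length, both atrial light chains were therefore above both ventricular ones in each cell, since Myl7 and Myl4 never fell under 1015 FPKM and Myl2 and Myl3 never exceeded 102. Myh6, the fast cardiac myosin heavy chain, was at 180, 78.7, 107, 262 and 45.5 FPKM in HL1cm1 to HL1cm5 and at 378 in HL1cm-PC, above each of the cells. Myh7, the slow heavy chain, was at 4.66 FPKM in HL1cm1 and listed at 0 in the other 5 libraries. Of the 8 thick filament genes, 4 were at 1 FPKM or more in all 5 cells.

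Of 8 thin filament genes, 7 were at 1 FPKM or more in all 5 cells, and the exception was the skeletal actin Acta1, at 4.50 FPKM in HL1cm4 alone and 27.3 in HL1cm-PC. Cardiac actin Actc1 was at 1385, 3413, 823, 1398 and 1284 FPKM in the cells and 1819 in HL1cm-PC. The actins are close copies of each other, so reads may have been divided between them. Cardiac troponin T (Tnnt2) was at 2988, 2807, 6403, 1979 and 1327 FPKM, with HL1cm-PC at 3258. HL1cm3 was the high cell for this subunit and HL1cm5 the low one. The slow skeletal troponin I gene Tnni1, which the embryonic heart also uses, was at 1993, 193, 2302, 1765 and 842 FPKM, and HL1cm2 was the low cell. Tnnc1, the calcium-binding subunit, was at 776 and 780 FPKM in HL1cm1 and HL1cm4, the Nppa cells, and at 89.3, 16.4 and 138 in HL1cm2, HL1cm3 and HL1cm5, with HL1cm-PC at 211. Tnnc1 was singled out after its values were seen. The share of all genes that split the cells in this way was not counted.

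Troponin genes of fast skeletal muscle appeared in 1 library each. Tnni2 was at 73.3 FPKM in HL1cm5 and listed at 0 in the other 5 libraries, and Tnnc2 was at 60.6 FPKM in HL1cm-PC and listed at 0 in all 5 cells. Tnnt1, the slow skeletal troponin T, was at 49.3 FPKM in HL1cm-PC alone. In contrast, Myl1, which encodes an essential light chain used in fast skeletal muscle and in the embryonic heart, was shared by all. It was at 2005, 1443, 1696, 3118 and 1022 FPKM in the cells, at 1248 in HL1cm-PC and at 0 in all 17 mMSC libraries.

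Genes of the Z disc, titin and the M band were shared in 11 of 15 cases. Smpx, a small protein of the muscle membrane skeleton, was at 1608, 868, 166, 760 and 434 FPKM in HL1cm1 to HL1cm5. Ankrd1, a stretch-responsive protein bound to titin, had the widest range of the shared ones, with 111, 3498, 376, 937 and 618 FPKM in the cells and 1837 in HL1cm-PC. Ttn itself lay between 8.43 and 33.1 FPKM in the cells and at 7.38 in HL1cm-PC, below each cell. The Z disc gene Tcap was found in HL1cm3 alone among the cells, at 12.8 FPKM, against 74.1 in HL1cm-PC. Myom2 was listed at 0 in all 5 cells.

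Only 4 of 21 cardiac transcription factors were at 1 FPKM or more in all 5 cells. These were Gata4 (9.79 to 83.5 FPKM), Tbx20 (17.7 to 47.5), the coactivator Myocd (57.2 to 151) and Nr2f2 (2.62 to 33.7), a factor of atrial identity. Nkx2-5, an early factor of heart muscle that acts on Nppa, was at 12.9 FPKM in HL1cm1, 66.8 in HL1cm4 and 46.7 in HL1cm-PC and was listed at 0 in HL1cm2, HL1cm3 and HL1cm5. The cells with Nkx2-5 were also the cells with Nppa, and a link between the 2 genes was not tested. In this pair of cells alone, 42 genes were at 10 FPKM or more while under 1 FPKM in the other cells. Other pairs had 18 to 41 such genes. Tbx5 was listed at 0 in HL1cm3 and lay between 32.3 and 86.7 FPKM in the other 4 cells. Factors listed at 0 in all 6 libraries included Hand1, Isl1, Hey2, Irx4 and Shox2, where Irx4 and Hey2 are known from the ventricle and Shox2 from the pacemaker region. Of the 15 factors measured in any HL-1 library, 4 were 4-fold or more lower in the cell mean than in HL1cm-PC and 0 were higher, against 28.3% lower and 1.72% higher of all genes. The share of factors that were lower was near that of all genes.

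Of 13 genes that move calcium, 10 were at 1 FPKM or more in all 5 cells. The median difference of the cell mean from HL1cm-PC was 0.05 on the log2 scale, against a median of -1.07 over all genes. The list was also at a higher level, with a mean log2 FPKM of 5.01 in HL1cm-PC against 3.56 over all genes. Genes at low levels were more often listed at 0, and no comparison with genes of like level was made. Atp2a2, the pump that refills the calcium store, was at 442, 480, 359, 375 and 232 FPKM in the cells and 261 in HL1cm-PC. Its inhibitor Pln was at 70.1, 103, 178, 372 and 29.7 FPKM, and the calcium-binding store protein Casq2 at 266, 79.2, 22.5, 164 and 77.1. Sln, the atrial inhibitor of the same pump, was found in HL1cm1 (48.2 FPKM) and HL1cm5 (26.0) and at 50.7 in HL1cm-PC. The release channel Ryr2 ran from 6.12 to 22.5 FPKM in the cells and was at 3.07 in HL1cm-PC.

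Ion channel genes were low and patchy. Kcnj3, a subunit of the atrial acetylcholine-activated potassium channel, was at 79.6 FPKM in HL1cm4 and listed at 0 in the other 5. HL1cm3 had 15 of the 19 channels listed at 0, against 9 to 11 in the other cells. The cell junction gene Gja1 (connexin 43) was present in every cell, at 341, 333, 1131, 937 and 256 FPKM with 277 in HL1cm-PC, and Gja5 (connexin 40, used in the atrium) in HL1cm-PC alone, at 9.80 FPKM.

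The medium contained norepinephrine, and 24 genes of adrenergic signalling were therefore followed. The receptor gene Adrb1 was found in HL1cm1 (12.7 FPKM), HL1cm4 (8.74) and HL1cm5 (22.2), and was listed at 0 in HL1cm2, HL1cm3 and HL1cm-PC. Adra1a and Adra1d were listed at 0 in all 6 libraries, as were 9 of the 24 genes in all. Gnas, which encodes the stimulatory G protein subunit, was at 53.9, 275, 234, 53.7 and 131 FPKM in the cells and 55.3 in HL1cm-PC. HL1cm2, with no Adrb1, had the highest Gnas.

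Of 20 muscle energy genes, 12 were at 1 FPKM or more in all 5 cells. Fabp3, the heart fatty acid binding protein, was at 3866, 2314, 1374, 2186 and 1328 FPKM in the cells and 1920 in HL1cm-PC, and Slc25a4, the mitochondrial ADP and ATP carrier of heart muscle, lay between 1321 and 2643 with 3250 in HL1cm-PC. HL1cm5 was the lowest cell for both. It was also lowest for the 86 nuclear-encoded genes of the respiratory chain, whose mean log2 FPKM was 8.52, 8.19, 8.42, 8.22 and 7.44 in HL1cm1 to HL1cm5 and 8.54 in HL1cm-PC. Of the 84 that were measured, 78 were at 1 FPKM or more in all 5 cells, and 3 were 4-fold lower in HL1cm5 than in the mean log2 of the other 4 cells, against 9.40% of all genes. HL1cm5 also had the lowest summed FPKM of the genes kept (443218, against 507141 to 669131 in the other cells) and the largest share of Mir and Snor genes, and their part in its low values was not tested. Under 3 other scalings it stayed the lowest cell for the respiratory chain genes, at 7.0 to 7.91. The gap nearly closed with the same upper quartile, where HL1cm5 was at 7.91 and HL1cm4 at 7.94.

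Across all genes, 3249 were at 1 FPKM or more in all 5 cells, which was 28.2% of those measured, and 3216 (28.0%) were in all 6 libraries. At the other end, 2231 genes reached this level in 1 cell only, 1686 in 2, 1593 in 3 and 1710 in 4. The share of these genes that HL1cm-PC also showed went up with the number of cells, from 54.2% for genes of 1 cell through 79.6%, 90.1% and 96.0% to 99.0% for those of all 5. Their median level in HL1cm-PC went up with it, from 5.98 to 61.9 FPKM. The genes shared by all 5 cells were thus the abundant ones of the population. After Myl7, the shared genes with the highest lowest value were Cox6a1 (4034 to 7345 FPKM in the cells), Rpl41, Sod1, Ftl1 and Slc25a5, which serve respiration, translation, defence against oxygen radicals, iron storage and ADP transport.

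Few of the shared genes were absent from mMSCs. Of the 11502 genes, 74 (0.643%) were at 1 FPKM or more in all 6 HL-1 libraries and under 1 FPKM in all 17 mMSC libraries. They were led by Myl1, by Mlana at 285 to 995 FPKM in the cells and 812 in HL1cm-PC, and by 1500015O10Rik at 248 to 1770. Mlana encodes a melanosome protein of pigment cells, and muscle genes followed, among them Ppp1r3a of muscle glycogen (123 to 372 FPKM), Cav3 of the muscle membrane (107 to 286), Cox6a2 (86.8 to 415) and Ckmt2 (62.1 to 512). Prph, an intermediate filament gene of peripheral neurons, was also among them, at 32.6 to 347 FPKM. The rule left out any gene at 1 FPKM or more in even 1 mMSC library. Tnni3 (1 such library) and Myl7 (5) were thus not counted, although the median of each over the mMSC libraries was 0.

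Markers of other cell types were mostly at 0. Of 19 fibroblast and mesenchymal genes, 12 were listed at 0 in all 6 libraries, Col1a2, Pdgfra, Ly6a and Postn among them, and the list's mean log2 FPKM lay between 1.00 and 1.24 in the cells and at 1.28 in HL1cm-PC. The 3 found in every cell were Vim (555 to 1005 FPKM), Sparc (161 to 833) and Fn1 (3.79 to 9.31). Of 11 endothelial genes 8, and of 14 macrophage and blood genes 12, were listed at 0 in all 6. Of the endothelial genes that were not, Egfl7 was at 12.7 FPKM in HL1cm4 and 73.4 in HL1cm-PC, and Kdr at 13.8 in HL1cm1, 6.31 in HL1cm4 and 5.84 in HL1cm-PC, and Pecam1 at 6.00 in HL1cm3 alone. Smooth muscle genes differed from the other lists. Acta2 was at 1446, 3532, 798, 2786 and 1523 FPKM in the cells and 3887 in HL1cm-PC, and Tagln at 234, 690, 18.4, 790 and 69.0 with 534 in HL1cm-PC, but Myh11, which defines mature smooth muscle, was listed at 0 in all 6. Myl9, looked at after its values were seen, lay between 997 and 2219 FPKM. The 4 genes of chromosome Y that were followed were listed at 0 in all 6 libraries.

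HL1cm2 stood apart in the cell cycle. The mean log2 FPKM of 56 G2/M genes, which serve spindle assembly and division, was 2.29 in HL1cm2, against 6.72, 5.96, 5.40 and 5.49 in HL1cm1, HL1cm3, HL1cm4 and HL1cm5 and 6.05 in HL1cm-PC. Of the 56 genes, 38 were 4-fold or more lower in HL1cm2 than in the mean log2 of the other 4 cells and 0 were higher, while 10.6% of all genes were lower and 13.5% higher in this cell. It was the lowest of the 5 cells for 43 of the 56 genes and had 25 of them listed at 0, against 0 to 3 in the other cells. Birc5 (survivin) was at 877, 0, 446, 319 and 245 FPKM in HL1cm1 to HL1cm5 and 294 in HL1cm-PC. Ccnb1, the mitotic cyclin B, was at 273, 1.80, 122, 41.9 and 53.3 FPKM, and Top2a, the topoisomerase of chromosome condensation, at 254, 3.46, 125, 205 and 262. HL1cm2 fell below the other 4 cells for each of these genes, and the same held for Mki67, at 13.1 FPKM in HL1cm2 and 39.9 to 160 in the others. Some members stayed high in HL1cm2, such as Tubb4b (277 FPKM) and Gtse1 (135), the first of which is a tubulin used outside division too. Cdkn3, a phosphatase of mitosis that was not in the list and was looked at after its values were seen, was at 764, 0, 297, 83.4 and 64.3 FPKM. The cells were not staged by microscopy or dye, so their place in the cycle is known from these transcripts alone.

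Many G2/M genes share 2 short elements in their promoters, a CCAAT box (CCAAT) and the cell cycle genes homology region (CHR, here TTTGAA). Of the 56 genes, 48 were matched to 53 promoters in RefSeq, of which 40 (75.5%) held CCAAT and 21 (39.6%) TTTGAA on either strand, against 33.8% and 16% of all 32851 promoters of this length. CCAAT was also found in 25 of 36 promoters (69.4%) of the S phase list, and is therefore not particular to G2/M genes, although only 32 of those 45 genes were matched, too few for a comparison of the lists. Birc5 is shown as the gene under 1 FPKM in HL1cm2 with the highest lowest value in the other cells. Ckap2l and Ccnb2 are shown as the first of the same order whose windows held both elements. Only genes with exactly 1 promoter matched in RefSeq were searched for this, with 1 chromosome left out. Aurkb and Fam64a, which stand above Ckap2l by the same value, were therefore not searched. Capitals mark the 2 elements on either strand, which do not overlap in these windows.

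Birc5, chr11:117848987-117849236, plus strand: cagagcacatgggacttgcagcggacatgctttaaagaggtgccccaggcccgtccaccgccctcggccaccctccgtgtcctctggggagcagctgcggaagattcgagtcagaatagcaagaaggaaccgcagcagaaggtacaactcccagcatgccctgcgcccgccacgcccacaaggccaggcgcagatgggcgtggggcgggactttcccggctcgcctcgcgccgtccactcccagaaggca

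Ckap2l, chr2:129297213-129297462, minus strand: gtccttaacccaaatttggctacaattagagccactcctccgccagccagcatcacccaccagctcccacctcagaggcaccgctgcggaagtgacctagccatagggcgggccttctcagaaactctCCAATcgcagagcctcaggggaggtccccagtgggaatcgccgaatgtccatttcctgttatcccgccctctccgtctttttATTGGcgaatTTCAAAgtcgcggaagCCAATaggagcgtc

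Ccnb2, chr9:70421555-70421804, minus strand: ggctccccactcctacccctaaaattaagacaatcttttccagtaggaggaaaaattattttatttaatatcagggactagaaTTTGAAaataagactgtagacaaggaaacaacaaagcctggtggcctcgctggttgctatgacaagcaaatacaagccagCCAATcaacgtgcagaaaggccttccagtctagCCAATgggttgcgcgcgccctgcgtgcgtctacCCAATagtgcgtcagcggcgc

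The Birc5 window held neither. Ckap2l held 3 CCAAT boxes, at 122, 40 and 14 bases before the start site, and a CHR at 30 bases. Ccnb2 held 3 CCAAT boxes at 87, 54 and 21 bases and a CHR farther away, at 167 bases. Ckap2l, a spindle protein, was at 76.0, 0, 70.5, 46.3 and 28.9 FPKM in HL1cm1 to HL1cm5 and at 47.6 in HL1cm-PC, and cyclin B2 (Ccnb2) was at 114, 0, 153, 24.2 and 24.7 with 111 in HL1cm-PC. Genes with and without both elements were thus at 0 in HL1cm2.

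HL1cm1 had the highest G2/M mean in the values as deposited. With the same sum of FPKM over all genes, HL1cm4 had the highest mean (6.34) and HL1cm1 was second (5.96), while HL1cm2 stayed lowest (2.72). As deposited, HL1cm1 had the highest value of the 5 cells for 32 of the 56 genes, and 25 were 4-fold or more above the mean log2 of the other 4 cells, against 15.4% of all genes. Part of this count comes from HL1cm2, which lowers the mean it was compared with. Ube2c, the ubiquitin carrier of the anaphase complex, was at 1456, 77.7, 1150, 467 and 202 FPKM in the cells and 646 in HL1cm-PC. The kinetochore gene Cenpa was at 323 and 203 FPKM in HL1cm1 and HL1cm3, at 33.1 in HL1cm5 and listed at 0 in HL1cm2 and HL1cm4.

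Genes of S phase followed another order. The mean log2 FPKM of 45 genes was highest in HL1cm4, at 5.08, then 4.35 in HL1cm2, 4.23 in HL1cm5, 3.71 in HL1cm1 and 2.96 in HL1cm3, all below the 5.59 of HL1cm-PC. HL1cm4 was highest for 21 of the 45 and had 14 that were 4-fold or more above the other 4 cells, against 13.7% of all genes, while HL1cm3 had 14 that were 4-fold lower, against 11.8%. Pcna, the sliding clamp of replication, was at 39.8, 208, 30.6, 546 and 160 FPKM in HL1cm1 to HL1cm5 and 233 in HL1cm-PC. Cdc6, which licenses origins, was at 71.7 FPKM in HL1cm4 and at most 2.24 in the other cells, with 25.0 in HL1cm-PC. HL1cm2, with the lowest G2/M mean, thus had the second highest S phase mean in the values as deposited. Mcm2 was at 93.7 FPKM in HL1cm2 against 14.2 to 30.5 in the other cells. This rank depended on the scaling, since with the same upper quartile HL1cm5 (4.70) lay above HL1cm2 (4.16). HL1cm4 stayed highest (4.79). Rrm2, a subunit of ribonucleotide reductase, was again low in HL1cm2, at 564, 130, 461, 1020 and 492 FPKM. Of 66 replication-dependent histone genes, 52 were listed at 0 in all 6 libraries. Their messages are known to lack a poly(A) tail, and reads of near-identical copies such as Hist1h4d (437, 0, 337, 648 and 710 FPKM, with 0 in HL1cm-PC) are uncertain.

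**Figure D2:**
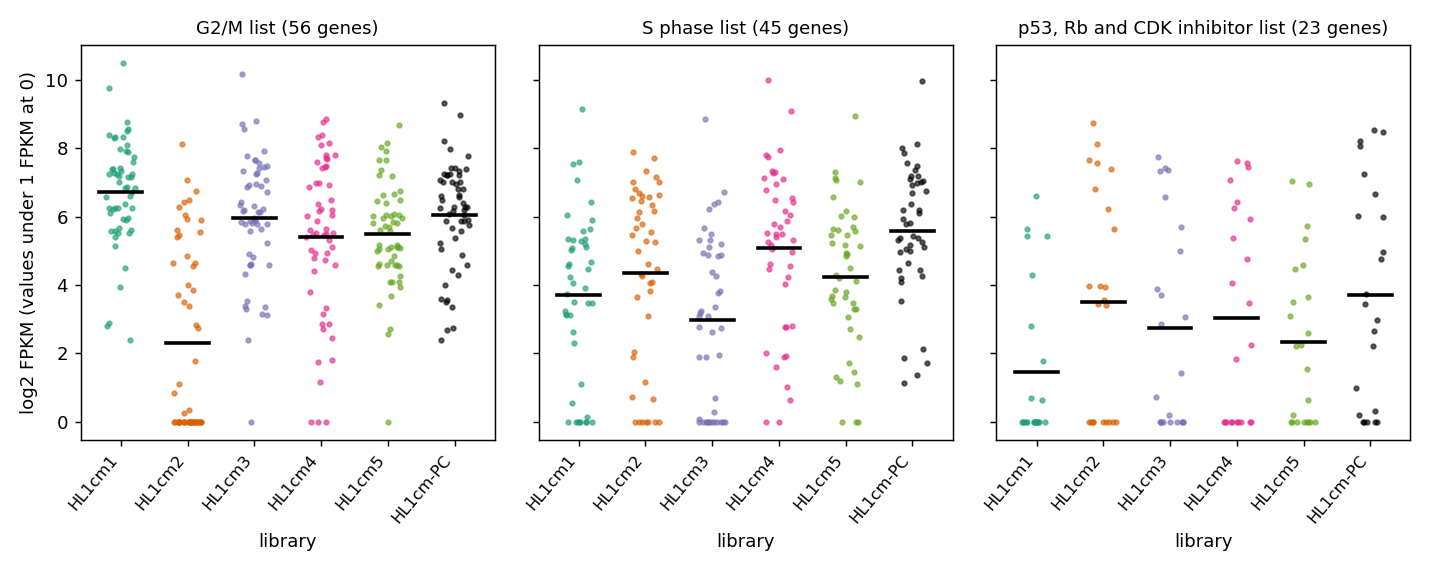
Log2 FPKM of each gene (points, values under 1 FPKM at 0) of the G2/M, S phase and p53, Rb and CDK inhibitor lists in the 5 HL-1 cells and HL1cm-PC, with the list mean as a black bar. The G2/M mean is 2.29 in HL1cm2 and 5.40 to 6.72 in the other cells, while the S phase mean is highest in HL1cm4 and the third list is lowest in HL1cm1.

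Large T antigen is known to bind p53 and the retinoblastoma protein, and genes around these proteins were therefore set beside the cycle lists. Cdkn1a, the p53-dependent CDK inhibitor p21, was listed at 0 in HL1cm1 and was at 282, 160, 196 and 8.55 FPKM in HL1cm2 to HL1cm5, with 270 in HL1cm-PC. Ccng1, another p53 target, was at 98.0, 428, 173, 174 and 12.6 FPKM, and Mdm2, which degrades p53, at 19.5, 113, 213, 85.4 and 11.3. HL1cm1 and HL1cm5 were the 2 lowest cells for each of the 3. Not every member of the list had this order. Bax was lowest in HL1cm3, at 14.7 FPKM, against 49.9 in HL1cm1 and 52.8 in HL1cm5. Trp53 itself was at 43.0 FPKM in HL1cm1 and at 200, 95, 133 and 133 in the others, with 299 in HL1cm-PC. Of the 21 measured genes of the list, 9 were 4-fold or more above the other cells in HL1cm2 and 0 below, against 13.5% and 10.6% of all genes. In HL1cm1, 0 were above and 6 below, against 15.4% and 8.07% of all genes. Cdkn2c, an inhibitor of CDK4 and CDK6, was listed at 0 in HL1cm1 and lay between 51.9 and 190 FPKM in the others. In the values as deposited, HL1cm1, with the highest G2/M mean, had the lowest mean of this list (1.45), and HL1cm2, with the lowest, had the highest (3.50), while HL1cm3, HL1cm4 and HL1cm5 lay between, at 2.74, 3.04 and 2.34. With the same sum of FPKM over all genes, HL1cm1 and HL1cm2 stayed at the ends of this list (1.16 and 3.98), but HL1cm1 no longer had the highest G2/M mean. A relation over 5 cells of 1 sample was not tested.

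HL1cm2 was also the only cell with Myc, at 136 FPKM, with 87.4 in HL1cm-PC, and the only one with the stress gene Atf3 (38.8 FPKM) and the chaperone gene Dnajb9 (76.2). Of 21 measured immediate early and heat shock genes, 7 were 4-fold higher in HL1cm2 than in the other cells and 2 lower, against 13.5% and 10.6% of all genes. In HL1cm4, 6 were higher and 1 lower, against 13.7% and 10.3%. Fos was present in every cell, at 148, 394, 60.6, 251 and 184 FPKM with 148 in HL1cm-PC, whereas the highest mMSC library had 7.78. Egr1 was listed at 0 in HL1cm1 and was at 118, 16.3, 493 and 45.1 FPKM in HL1cm2 to HL1cm5. Fos and Egr1 encode factors that are induced within minutes of a stimulus. Of 17 measured genes of endoplasmic reticulum and amino acid stress, 5 were 4-fold higher in HL1cm1 and 0 in HL1cm5, against 15.4% and 8.92% of all genes.

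Each cell also had genes found in it alone. Of genes at 10 to under 30 FPKM in HL1cm-PC, 34.1% to 38.2% were listed at 0 in a given cell. A gene found in 1 cell may thus have been missed in the others. Counting genes at 10 FPKM or more in 1 cell and under 1 FPKM in the other 4 gave 682 (5.93%), of which 145 were in HL1cm1, 122 in HL1cm2, 177 in HL1cm3, 136 in HL1cm4 and 102 in HL1cm5. HL1cm-PC showed 59.3% (HL1cm3) to 68.9% (HL1cm2) of them at 1 FPKM or more. The highest were Akr1b7 in HL1cm1 (130 FPKM), the chondroitin gene Chpf in HL1cm2 (145), the respiratory chain gene Cox7b2 in HL1cm3 (127), Hist1h3e in HL1cm4 (196) and Tnni2 in HL1cm5. Akr1b7 has a close copy in Akr1b3, which was also found in HL1cm1 alone at 1 FPKM or more (121 FPKM) although HL1cm-PC had 144, so the division of reads between them is uncertain. Pairs of cells shared between 18 and 42 genes in the same way, and the pair HL1cm1 and HL1cm4 shared the most, led by Nppa and by Ckb, a creatine kinase. Conversely, between 53 (HL1cm1) and 106 (HL1cm3) genes were at 10 FPKM or more in 4 cells and under 1 FPKM in the fifth. In HL1cm3 they included Tmsb4x, at 514 to 1335 FPKM in the other cells, and Eno1, at 282 to 327, and in HL1cm2 they included Birc5, Cdca3, Aurkb and Tacc3.

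Some of the widest ranges fell on genes with near-identical copies, for which the estimate of a single copy is uncertain. Rpl26 was at 0.337 and 0.243 FPKM in HL1cm1 and HL1cm5 and between 530 and 782 in the other cells, and Rpl30 at 0.227, 534, 1.39, 176 and 0.03 FPKM in HL1cm1 to HL1cm5. Over all 86 cytoplasmic ribosomal protein genes the cells were close, with a mean log2 FPKM of 8.18 to 8.97 and a median SD between cells of 0.45 over the 83 that were measured, against 1.29 for all genes. Of these 83, 77 were found in all 5 cells. The list was at a high level, with a mean log2 FPKM of 9.06 in HL1cm-PC against 3.56 over all genes. Its SD was not compared with that of genes of like level. Other wide ranges were Cxcl10, an interferon-induced chemokine, at 162 FPKM in HL1cm2, 121 in HL1cm5, 132 in HL1cm-PC and 0 in the other 3 cells, and the neuronal RNA Bc1, at 898 in HL1cm3, 322 in HL1cm4 and 553 in HL1cm-PC and listed at 0 in the other 3 cells.

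Pearson's r of log2 FPKM between pairs of cells was 0.64 to 0.70 over the 10 pairs (median 0.68), across 11502 genes that share libraries and are not independent replicates. Each cell had an r of 0.66 to 0.71 with HL1cm-PC, and the mean of the 5 cells 0.81. With mMSC libraries the cells had an r of 0.51 to 0.62, below every pair of HL-1 cells. The 11502 genes were chosen by the HL-1 libraries alone, so genes found only in mMSCs did not enter this r. The part of this choice in the lower r was not tested. HL1cm-PC had a higher r with mMSC-PC (0.72) than with any of its own cells. HL1cm3 was the cell with the lowest median r with the other cells, at 0.66. It also had the lowest mean of 21 genes of general use, at 7.66 against 8.85 to 9.03 in the other cells and 9.54 in HL1cm-PC. Of these 21, 18 were at 1 FPKM or more in HL1cm3, against 20 or 21 in the other cells. Only 2 were 4-fold lower than the mean log2 of the other 4 cells, and the median difference was -0.51. HL1cm3 also had the lowest mean of the S phase and ribosomal protein lists. The part of these low means in the other results of HL1cm3 was not tested.

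Each cell was then set against the mean log2 of the other 4. HL1cm1 had the most genes 4-fold or more higher (15.4%) and the fewest lower (8.07%), and HL1cm5 the fewest higher (8.92%). HL1cm4 had 10.3% lower, beside the 13.7% higher given above. A gene that 1 cell shows at a high level also lowers the other 4 by this measure. In the muscle energy list, 4 of 19 measured genes were 4-fold higher in HL1cm4 and 0 in HL1cm5, and in the ion channel list 4 of 15 were higher in HL1cm4 and 4 lower in HL1cm3.

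Against HL1cm-PC, the 5 cells gave shares close to each other. The genes 4-fold or more higher than in HL1cm-PC were 6.71% in HL1cm1, 5.31% in HL1cm2, 5.92% in HL1cm3, 5.79% in HL1cm4 and 4.57% in HL1cm5, and the lower ones 28.4%, 31.2%, 33.4%, 30.9% and 31.6%. Lists could differ more. For the G2/M list in HL1cm2, 37 of 56 genes were 4-fold lower than in HL1cm-PC, against 1 in HL1cm1, 5 in HL1cm3, 9 in HL1cm4 and 8 in HL1cm5. The population thus resembled the 4 other cells more than HL1cm2 for these genes. For the S phase list the lowest cell was HL1cm3, with 24 of 45 genes 4-fold lower than in HL1cm-PC, against 7 in HL1cm4.

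The population control differed from the cells mainly by what they lacked. Taking the mean log2 of the 5 cells, 3256 genes were 4-fold or more lower in the cells (28.3%) and 198 higher (1.72%), with a median difference of -1.07 over all genes. When the log2 of the mean FPKM was taken in place of the mean log2, 2022 genes (17.6%) were lower and 586 (5.09%) higher, with a median difference of -0.59. The share of genes listed at 0 went down with the level in HL1cm-PC, as the plot of genes listed at 0 shows. In the median cell it was 62.0% of genes at 1 to under 3 FPKM in HL1cm-PC, 36.5% at 10 to under 30, 4.76% at 100 to under 300 and 0 at 1000 or more. The cells ran close together at each level.

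**Figure D3:**
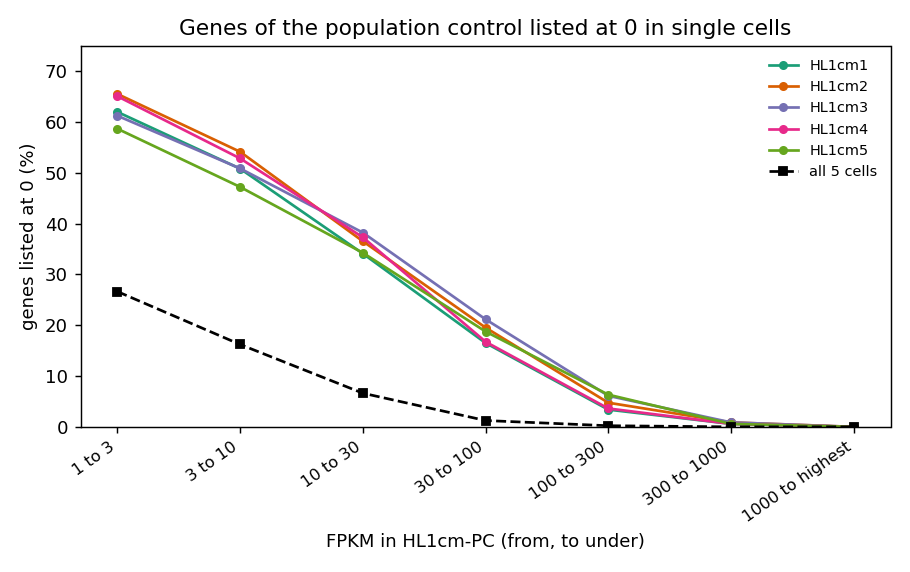
Percentage of genes listed at 0 in each HL-1 cell (coloured lines) and in all 5 cells (dashed line) by their FPKM in HL1cm-PC. The cells fall together from 58.7 to 65.5% at 1 to under 3 FPKM to 0 at 1000 FPKM or more.

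Genes that HL1cm-PC alone showed numbered 964 (8.38%), at 1 FPKM or more there and listed at 0 in all 5 cells. Of these, 200 were at 10 FPKM or more, 28 at 30 or more and 2 at 100 or more. The 2 were Drap1, a repressor of transcription initiation at 112 FPKM, and Apoe, the lipid carrier apolipoprotein E at 110 FPKM. Drap1 was found in 14 of 16 mMSC cells, whereas Apoe was listed at 0 in all 17 mMSC libraries. Of the 964 genes, 494 (51.2%) were at or above 1 FPKM in mMSC-PC, and 277 (28.7%) were under 1 FPKM in every mMSC library, led by Apoe, Fbxl15 (63.9 FPKM), Tnnc2, Rhox5 (58.1) and Nppb. Rhox5 is a homeobox gene of the X chromosome that is known from the reproductive tract and from cultured tumour lines.

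Other genes were nearly confined to HL1cm-PC. Gdf15, a stress-induced cytokine, was at 158 FPKM there and at 10.8 in HL1cm2 alone among the cells. Icam1, an adhesion molecule looked at after its values were seen, was at 78.1 FPKM in HL1cm-PC and 7.35 in HL1cm2, and listed at 0 in all 17 mMSC libraries. Iscu, a scaffold of iron and sulphur clusters, was at 193 FPKM in HL1cm-PC, 14 in HL1cm1 and 31.8 in HL1cm2. The glucose transporter gene Slc2a1 was at 36.1 FPKM in HL1cm-PC and listed at 0 in all 5 cells, and the chaperone Hspa5 was at 2001 FPKM there and at 237 to 1141 in the cells. Of the 17 measured stress genes of the endoplasmic reticulum list, 8 were 4-fold lower in the cell mean and 0 higher, against 28.3% and 1.72% of all genes. Fewer expressing cells and less RNA per cell cannot be told apart in a population control.

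Some abundant RNAs were among the 198 genes that were higher in the cells. Malat1, a nuclear long noncoding RNA, was at 351, 949, 726, 489 and 442 FPKM in HL1cm1 to HL1cm5 and at 22.9 in HL1cm-PC, and Mrfap1, a small protein gene among the 15 with the highest lowest value over the cells, was at 2065, 1426, 2092, 1689 and 2026 against 330. Atp6v0c, a proton pump subunit, was at 204, 660, 10.2, 364 and 190 FPKM against 2.03. Every cell lay above HL1cm-PC for these 3 genes. For Malat1 and Mrfap1 the mMSCs had the same order, with Malat1 at 416 to 5701 FPKM in their 16 cells and 58.1 in mMSC-PC, and Mrfap1 at 1345 to 5580 and 174. Atp6v0c was at 0.249 to 680 FPKM in the mMSC cells and 0.468 in mMSC-PC, so that not every mMSC cell lay above its population. Rn45s, the precursor of ribosomal RNA, went the other way in both lines, at 1885 to 4329 FPKM in the HL-1 cells against 11449 in HL1cm-PC and at 1971 to 4242 in the mMSC cells against 13182 in mMSC-PC.

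Over all genes, 51 of the 198 that were 4-fold higher in the HL-1 cells than in HL1cm-PC were also higher in the mMSC mean than in mMSC-PC, which is 25.8% of the HL-1 genes and 21.4% of the 238 mMSC genes. In the mMSCs, 2.07% of the same 11502 genes were higher. Of the 3256 lower genes, 1120 were lower in both, 34.4% of the HL-1 genes and 63.6% of the 1761 mMSC genes, where 15.3% of all genes were lower. A gene could be called lower only if its population control was at 4 FPKM or more. Both base shares also count genes too low in the mMSC libraries to be called. The overlaps were not compared among genes of like level, so no excess over these shares is read from them. The 2 comparisons share no library, but each sets cells processed on the chip against a bulk population of the same line. Preparation and a difference between captured cells and their population therefore cannot be told apart for these genes.

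**Figure D4:**
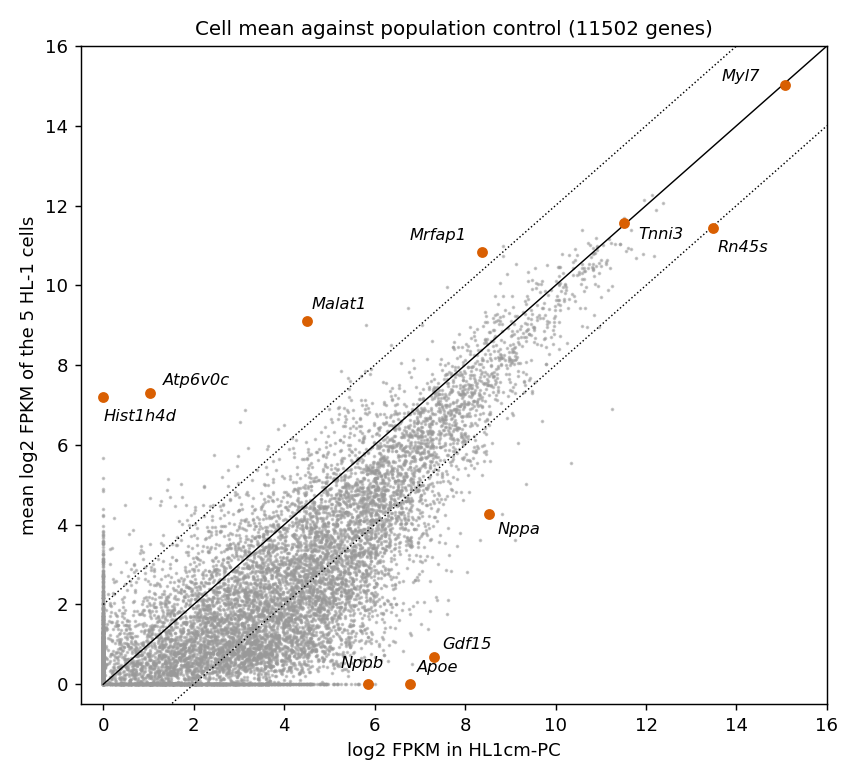
Mean log2 FPKM of the 5 HL-1 cells against log2 FPKM of HL1cm-PC for 11502 genes, with the line of equality (solid) and 4-fold lines (dotted) and 11 genes named in the text in orange. Most genes lie under the solid line, Myl7 and Tnni3 lie on it, and Malat1, Mrfap1, Atp6v0c and Hist1h4d stand above the upper dotted line.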

How the data were processed

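RNA-seq values of 23 libraries were used, of which the 6 from HL-1 cells were described and the 17 from mMSCs were set beside them. cDNA was made with the SMARTer kit (on the chip for single cells), and libraries with Nextera XT. The authors aligned reads to mm10 with TopHat2 2.0.12, estimated abundance with Cufflinks 2.2.1 and deposited FPKM values per gene, normalized for gene length and mapped fragments. Short genes reach a high FPKM from few fragments. Columns were matched to samples by name, and 0 columns of samples were left unused. Read counts were not used here. The study lists aligned read pairs per library, which were not used here, and depth was not recovered from low FPKM values, so no interval that needs it was given. Exact 95% (Clopper-Pearson) intervals cover cells as units.

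Genes with Mir and Snor symbols were left out, values under 1 FPKM were set to 1, and log2 FPKM was used. A gene was included if any HL-1 library reached 1 FPKM. A difference of 2 on the log2 scale (4-fold) was the limit for calling a gene higher or lower, with no test, because the cells of a line formed 1 sample. The members and gene lists were chosen with earlier results of these data known. Genes were named as members of the lists, as those with the highest lowest value over the cells or largest SD, the highest of 1 cell or of HL1cm-PC alone, the largest differences from HL1cm-PC, and the highest HL-1 genes under 1 FPKM in mMSCs. Others are marked. Alternatives changed the scaling, the limit, the log scale, the fold, the genes and the cells included. The counting was tested on simulated data. Promoters came from RefSeq (GRCm38.p6). Tables were handled with pandas 2.3.3 and numpy 2.4.6 in Python 3.11.15, intervals were computed with scipy 1.17.1 and plots drawn with matplotlib 3.10.9. Some genes are not reported here.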

Additional observations from a re-analysis of the deposited data

Results flagged for a closer look

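A gap test (Dixon's ratio of the gap at one end to the whole range, with a limit of 0.71 for 5 values) was applied to 85 values of the 5 cells, and 15 were past it. Chance gives about 1 in 20 only for values chosen without regard to their spread. Some of these genes were named because 1 cell stood out, so that rate does not apply to the 15. A gene listed at 0 in 4 cells always passes. HL1cm3 was low for the mean of the general use list (ratio 0.867), for Tmsb4x (0.867), Eno1 (0.975), Tbx5 (0.779) and Myl2 (0.745). HL1cm2 was low for Birc5 (0.812), Cdca3 (0.756) and Top2a (0.828) and was the only cell with Myc (1). HL1cm4 was high for Cdc6 (0.811) and was the only cell with Myl3 and Kcnj3 (1 for both). HL1cm5 was low for Tnni3 (0.738) and the only cell with Tnni2 (1), and HL1cm1 was low for Cdkn2c (0.753).

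Genes with Mir and Snor symbols, which were left out of the report's comparisons, held more of the summed FPKM than in HL1cm-PC (2.40%) in 4 cells, with 70.3% in HL1cm1, 14.1% in HL1cm2, 69.7% in HL1cm3 and 76.2% in HL1cm5.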

How the results depend on the processing

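Among the values recomputed under other settings, 108 kept their size and 18 moved. A count kept its size if it was within 1.5 times the reported one in either direction. For r, the change had to be below the SD of r over the pairs compared. The rule is wide, since 6010 genes of the median cell away from HL1cm-PC counted as kept (same sum of FPKM over all genes, 4195 as reported). With values under 10 FPKM set to 10, the genes 4-fold higher in the cell mean than in HL1cm-PC fell to 29 and the lower ones to 468, the median cell differed in 963 genes from HL1cm-PC (4195 as reported) and in 438 from the other cells (2699 as reported), and r was 0.79 between cells and 0.88 between cell mean and HL1cm-PC. With an 8-fold limit these counts were 58, 1262, 2394 and 1166. Taking the log2 of the mean FPKM gave 586 higher and 2022 lower. With the same sum of FPKM over all genes, 5218 genes were lower in the cell mean. That scaling moved the median difference over all genes from -1.07 to -1.80, and the same sum over genes without Mir and Snor symbols moved it to -0.70, an alternative chosen after seeing the data. With limits of 50 and 5 FPKM in place of 10 and 1, 100 genes were found in 1 cell only. Over genes at 10 FPKM or more, r was 0.60 between cells and 0.75 for the cell mean, and Spearman's rho was 0.59 and 0.75. The number of G2/M genes 4-fold lower in HL1cm2 stayed within 1.5 times 38 under every setting for which it was recomputed. Leaving out 1 cell at a time gave 3495 to 3667 shared genes, 1162 to 1214 genes of HL1cm-PC alone and 744 to 838 genes of 1 cell. No paired analysis was possible because replicate numbers only name separately captured cells and no test between groups was made. The small number of cells and the single population limit every statement on shares of cells, and low FPKM values are the least certain.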
